A study of Danio rerio with 8 samples.

Results

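The 4 genes described here belong to the Cxcl12 chemokine system, which includes the ligand and receptor that guide migrating germ cells in the zebrafish embryo. They were chosen by Ensembl gene ID: cxcl12a (ENSDARG00000037116), cxcr4b (ENSDARG00000041959), cxcr4a (ENSDARG00000057633) and ackr3b (ENSDARG00000058179), 4 of the 34289 genes quantified. Their paralogue letters come with that choice of IDs, since the reference table used here lists both receptors as CXCR4. Levels were read from 8 RNA-seq libraries in 4 groups of 2, with PGCs (primordial germ cells, the precursors of eggs and sperm) and somatic cells taken at 24 hours post fertilisation (hpf, pharyngula) and at 7 hpf (gastrula). All cells came from embryos of the kop-EGFP-F-nos3'UTR transgenic line, in which membrane-bound EGFP, driven by the kop promoter and carrying the nos3 3' UTR, marks the PGCs, and which also carries the cry-DsRed cassette, and were isolated by fluorescence-activated sorting. Both stages and both cell types therefore carried the same transgene. The soma group is a mixture of somatic cells, so its value for a gene is an average over tissues. The study describes its replicates as biologically independent.

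Cxcl12a is a secreted chemokine made by somatic cells along the migration route, and zebrafish PGCs follow it with the G protein-coupled receptor Cxcr4b. Cxcr4a is a second Cxcr4 receptor, retained after the genome duplication of teleost fish. Ackr3b, also called Cxcr7b, is a decoy receptor that binds and internalises Cxcl12a in somatic cells, which keeps the gradient sharp. PGCs migrate through gastrulation and have gathered at the gonad region by the pharyngula stage.

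The labels were first set against cell type markers. Of 7 germ cell markers (NANOS3, DDX4, DAZL, DND1, tdrd7a, ca15b and PIWIL1), 5 passed the threshold as higher in PGCs at 24 hpf and 6 did at 7 hpf. Over all genes 0.0302% passed as higher at 24 hpf and 3.61% at 7 hpf. The threshold asked for a Benjamini-Hochberg adjusted p under 0.05 in edgeR's quasi-likelihood test, together with a log2 fold change of 1.5 or more in either direction. Their summed level was 670 and 506 CPM (counts scaled to a common library size, with TMM factors) in the 24 hpf PGC libraries, against 6.22 and 10.2 CPM in the soma libraries of that stage. At 7 hpf it was 4760 and 6310 CPM in PGC libraries, against 112 and 39.6 CPM in soma libraries. The germ cell label therefore held at both stages. The 24 hpf PGC libraries also carried transcripts of differentiated somatic tissue. Summed over 7 somatic marker genes (MYOD1, SOX2, ELAVL3, gata1a, krt4 and the pair listed as COL2A1), the level was 7240 and 11500 CPM in PGCs, against 9650 and 12600 CPM in soma. Krt4 and the COL2A1 pair made up most of that sum. At 24 hpf 0 of the 7 passed the threshold between the cell types, where only 0.0302% of all genes passed, so this count says little about them. The muscle regulator MYOD1 stood at 51 and 91.7 CPM in PGCs and at 42.5 and 47.8 CPM in soma. The neuronal gene ELAVL3 stood at 208 and 192 CPM in PGCs and at 179 and 238 CPM in soma. The markers did not all behave alike. The erythroid regulator gata1a stood at 1.9 and 1.58 CPM in PGCs, against 13 and 9.2 CPM in soma (log2 fold change -2.67, edgeR adjusted p = 1). The epidermal and enveloping layer keratin krt4 had 2420 and 6370 CPM in PGCs, against 6760 and 7250 CPM in soma. Both gata1a and krt4 were thus lower in PGCs without overlap, where 17.9% of all genes were. MYOD1 was higher in PGCs without overlap, where 19.2% of all genes were. At 7 hpf MYOD1, ELAVL3 and gata1a had at most 1.02 CPM in the PGC libraries. They had at most 8.39 CPM in soma, so they say little about somatic transcripts at that stage. Among 6 gastrula soma markers (tbxta, chrd, sox32, GATA5, foxi1 and krt4) only foxi1 passed, as lower in PGCs, where 1.83% of all genes did. It had 43.9 and 45 CPM, against 173 and 191 CPM in soma. Tbxta had 283 and 207 CPM in PGCs, against 468 and 239 CPM in soma. Chrd had 413 and 181 CPM, against 577 and 618 CPM. Other markers of the 7 were also present in PGCs at 7 hpf. Krt4 had 2820 and 1480 CPM in PGCs, against 209 and 696 CPM in soma (log2 fold change 2.25, edgeR adjusted p = 0.0565). It is also on the gastrula list, where it went the opposite way to the rest. The collagen gene COL2A1 (ENSDARG00000011407) passed as higher in PGCs at 7 hpf, with 9.94 and 3.3 CPM, against 1.2 and 1.21 CPM in soma. SOX2 passed as lower in PGCs, with 6.24 and 6.49 CPM, against 97.7 and 42 CPM in soma. The other COL2A1 gene (ENSDARG00000069093) also passed as lower in PGCs at 7 hpf, with 0.145 and 0 CPM, against 1.12 and 3.54 CPM in soma. Its PGC values were under 3 counts, so that call rests on very low levels. The study estimated its sorted PGCs to be of high purity. The part of somatic transcripts in the levels of the 4 guidance genes was not tested.

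**Figure D1:**
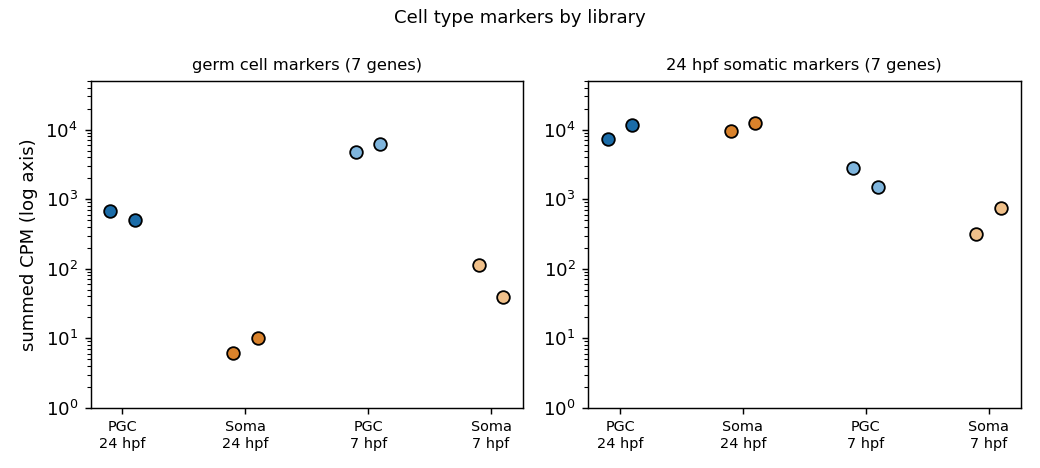
Summed CPM (log axis) of 7 germ cell markers (left) and 7 somatic markers of the pharyngula (right), with 1 point per library in the order PGC and soma at 24 hpf, then PGC and soma at 7 hpf. Germ cell markers separated PGCs from soma at both stages, at 670 and 506 CPM against 6.22 and 10.2 CPM at 24 hpf, whereas the summed somatic markers overlapped at 24 hpf. The somatic sum was mostly krt4 and the COL2A1 pair at 24 hpf. In PGCs at 7 hpf it was nearly all krt4 (2820 and 1480 CPM, of 2840 and 1490 CPM).

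Library totals ranged from 6997561 to 21073240 expected counts, so that 3 counts, taken here as the detection floor, corresponded to between 0.158 and 0.309 CPM. All 4 guidance genes passed the low-count filter that kept 19885 genes, and every library held at least 25 reads of each. Precision at that lowest count is limited, since it belongs to cxcr4a in a single 24 hpf PGC library, whereas most values rested on more than 100 reads.

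The first question was whether each guidance gene differs between PGCs and soma. At 7 hpf, when PGCs are migrating, the decoy receptor gene ackr3b was 4.03-fold lower in PGCs, and it was the only one of the 4 genes to pass the threshold at that stage. The receptor gene cxcr4b overlapped between the cell types and did not pass, and its paralogue cxcr4a was lower in PGCs without passing. At 24 hpf none of the 4 passed.

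The ligand gene cxcl12a had 22.9 and 31.1 CPM in PGC libraries at 24 hpf, against 27.5 and 27.9 CPM in soma libraries. At 7 hpf the values were 41.3 and 12.6 CPM in PGCs, against 39.7 and 39.8 CPM in soma. The groups overlapped at both stages. The 2 PGC libraries of 7 hpf stood far apart, one beside both soma libraries and the other well below them, while the soma libraries of each stage nearly coincided. The log2 fold change of PGCs over soma was -0.04 at 24 hpf (SE 0.49, edgeR adjusted p = 1) and -0.56 at 7 hpf (SE 0.49, edgeR adjusted p = 0.52). The 95% interval at 7 hpf ran from -1.66 to 0.55, so a decrease of more than the threshold was not excluded at this replication. Without the first 7 hpf PGC library the estimate at 7 hpf was -1.71 (edgeR adjusted p = 0.0561), and without the second it was 0.04. Reads of this soma-made ligand were thus measured in all 4 PGC libraries, at no fewer than 122 per library.

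For the receptor gene cxcr4b, PGC libraries had 8.03 and 7.51 CPM at 24 hpf, against 5.96 and 4.94 CPM in soma libraries. At 7 hpf PGC libraries had 40.8 and 60.6 CPM, against 51 and 18.5 CPM in soma libraries. The groups did not overlap at 24 hpf, with PGCs higher, and overlapped at 7 hpf, where the soma libraries differed from each other more than the PGC libraries did. The log2 fold change was 0.51 at 24 hpf (SE 0.48, edgeR adjusted p = 1) and 0.54 at 7 hpf (SE 0.47, edgeR adjusted p = 0.511). Both intervals, -0.58 to 1.60 at 24 hpf and -0.52 to 1.60 at 7 hpf, included 0. At 7 hpf the estimate turned to -0.01 without the second soma library and reached 1.45 without the first.

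The second receptor gene, cxcr4a, had 5.23 and 1.51 CPM in PGC libraries at 24 hpf, against 11.5 and 11.3 CPM in soma libraries. At 7 hpf it had 22.5 and 13.8 CPM in PGCs, against 71.6 and 34.3 CPM in soma. Every PGC library lay below every soma library of its stage. The log2 fold change was -1.75 at 24 hpf (SE 0.60) and -1.54 at 7 hpf (SE 0.58). Neither passed after adjustment over all genes, with an edgeR adjusted p of 1 at 24 hpf and 0.132 at 7 hpf. The unadjusted quasi-likelihood p from edgeR was 0.0175 at 24 hpf and 0.0268 at 7 hpf. Without the filter on low counts cxcr4a passed at 7 hpf (log2 fold change -1.58, edgeR adjusted p = 0.0152), while the fits without 1 library gave -2 to -0.91 at 7 hpf and did not pass. At 24 hpf they gave -2.90 without the first 24 hpf PGC library and -1.12 without the second.

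The decoy receptor gene ackr3b had 20.1 and 22.5 CPM in PGC libraries at 24 hpf, against 37.5 and 24.8 CPM in soma libraries. At 7 hpf it had 14.6 and 8.76 CPM in PGCs, against 42.7 and 51.8 CPM in soma. PGCs lay below soma at both stages, with a wide gap at 7 hpf and a narrow one at 24 hpf. The log2 fold change at 7 hpf was -2.01 (SE 0.38, 95% interval -2.87 to -1.15, edgeR adjusted p = 0.0217). At 24 hpf it was -0.55 (SE 0.37, edgeR adjusted p = 1). The call at 7 hpf was lost without the second PGC library (log2 fold change -1.72, edgeR adjusted p = 0.0892) and when only the 4 libraries of 7 hpf were fitted (-1.90, edgeR adjusted p = 0.0548). It was also lost in limma on log2(TPM + 1), where the log2 fold change was -1.65 and the adjusted p 0.0551.

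**Figure D2:**
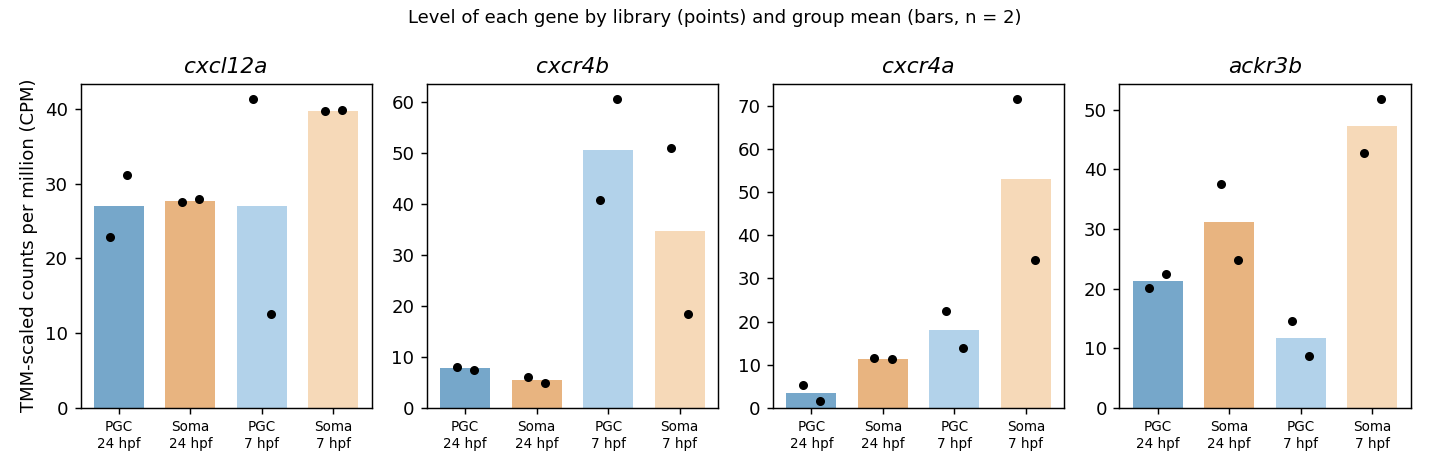
Level of each guidance gene in TMM-scaled CPM, with points for the libraries and bars for the group means (n = 2), in the order PGC and soma at 24 hpf, then PGC and soma at 7 hpf. Both receptor genes were lower at 24 hpf in both cell types, and ackr3b was lowest in PGCs at 7 hpf (14.6 and 8.76 CPM, against 42.7 and 51.8 CPM in soma).

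Set against all genes, 1 of the 4 passed at 7 hpf, where 5.44% of the 19885 genes tested passed in either direction and 1.83% passed as lower in PGCs. At that stage 2 of the 4 did not overlap between the cell types, where 48.7% of all genes did not. The median log2 fold change of the 4 genes was -1.05, and that of all genes 0. At 24 hpf 0 of the 4 passed, where 0.0302% of all genes did, and 3 of the 4 did not overlap, where 37.1% of all genes did not. Of these 3, cxcr4b was higher in PGCs (19.2% of all genes) and cxcr4a and ackr3b were lower (17.9% of all genes). The median was -0.30 over the 4 genes and 0.02 over all genes. At an unadjusted p under 0.05 in edgeR, 1 of the 4 (cxcr4a) differed at 24 hpf, where 3.02% of all genes did. DESeq2 also called 0 of the 4 at that stage, where it called 0.419% of all genes with an adjusted p. A lower level in PGC libraries could reflect fewer cells that express a gene or less RNA per cell, which bulk libraries cannot tell apart.

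The balance between the paralogous receptors separated the cell types at both stages. For single genes such non-overlap in CPM was common, at 37.1% of all genes at 24 hpf and 48.7% at 7 hpf. Its rate among the shares of other gene pairs was not examined. The share also carries the level of cxcr4a, which by itself did not overlap at either stage. Levels of different genes were compared per transcript length, in TPM (RSEM's transcript abundance, scaled to the same total in each library). Cxcr4b made up 58.9% and 82.9% of the summed cxcr4a and cxcr4b TPM in PGCs at 24 hpf, against 32.3% and 29.4% in soma. At 7 hpf it made up 62.1% and 81% in PGCs, against 40.8% and 33.6% in soma. In all 4 PGC libraries cxcr4b was the more abundant receptor transcript, and in all 4 soma libraries cxcr4a was. The mean share was 71.2% in PGCs and 34% in soma (n = 4 libraries each), a difference of 37.2 percentage points. A two-sided exact permutation test of the TPM share, with labels exchanged within each stage (36 arrangements), gave p = 0.0556. That is the smallest p this test can give at this replication, so the test could not have returned stronger evidence. It follows from the non-overlap at both stages and adds nothing to it. The plan had set no test for the share. Within 1 stage a two-sided exact permutation test of 2 libraries against 2 cannot go below 0.333. In PGCs the shares of the 2 stages overlapped, although the levels of both receptor genes did not. In soma the share was lower at 24 hpf without overlap.

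Counted in reads and not in TPM, the shares were 60.6% and 83.2% in PGCs at 24 hpf, with 95% Clopper-Pearson intervals of 54.2% to 66.6% and 76.2% to 88.8%. In soma at 24 hpf they were 34.1% (28.4% to 40.2%) and 30.5% (24.7% to 36.8%). At 7 hpf they were 64.4% (61.2% to 67.6%) and 81.4% (78.4% to 84.2%) in PGCs, against 41.6% (39.2% to 44%) and 35.1% (31.2% to 39.2%) in soma. The lowest PGC interval lay above the highest soma interval. The intervals of the 2 PGC libraries of a stage did not overlap each other either. These intervals treat reads as independent molecules, so PCR copies would make them too narrow even for counting error. They also leave out variation between libraries.

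**Figure D3:**
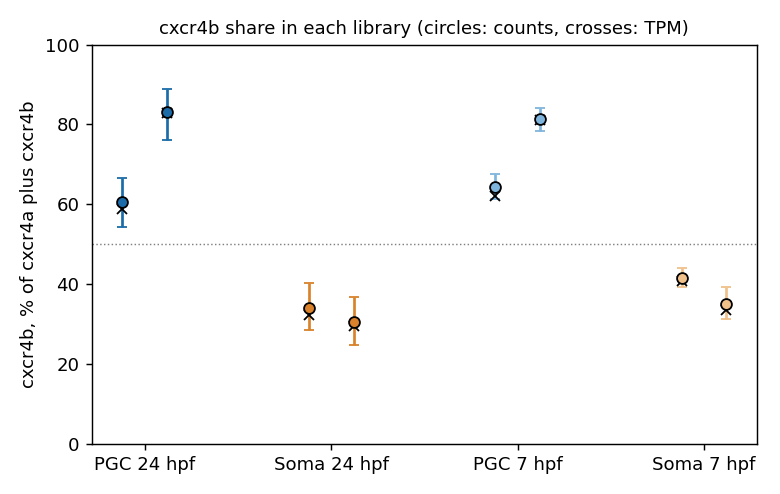
Share of cxcr4b in the sum of cxcr4a and cxcr4b for each library, as counts (circles, with 95% Clopper-Pearson intervals) and as TPM (crosses), for PGC and soma at 24 hpf, then at 7 hpf. All 4 PGC libraries lie above 50% and all 4 soma libraries below it.

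Both receptor genes fell between the stages in both cell types, by 4.65-fold to 6.51-fold with all libraries, whereas neither the ligand nor the decoy receptor gene passed the threshold. The second question, how far each gene changed with stage, was put to PGCs and soma separately. In PGCs cxcr4b had 8.03 and 7.51 CPM at 24 hpf, against 40.8 and 60.6 CPM at 7 hpf (log2 fold change -2.70, SE 0.50, edgeR adjusted p = 0.00417). In soma cxcr4b had 5.96 and 4.94 CPM at 24 hpf, against 51 and 18.5 CPM at 7 hpf (log2 fold change -2.67, SE 0.50, edgeR adjusted p = 0.00348). The estimates in the 2 cell types were almost equal, and their difference on the log2 scale was -0.03 (SE 0.69, 95% interval -1.58 to 1.52). In the same PGC comparison 5 of the 7 germ cell markers passed as lower at 24 hpf and 0 as higher (median log2 fold change -2.86). Over all genes 6.94% passed as lower. The 24 hpf PGC libraries also carried the somatic transcripts described above. The part of library composition in the fall of either receptor gene in PGCs was not tested.

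In PGCs cxcr4a had 5.23 and 1.51 CPM at 24 hpf, against 22.5 and 13.8 CPM at 7 hpf (log2 fold change -2.42, SE 0.61, edgeR adjusted p = 0.016). In soma cxcr4a had 11.5 and 11.3 CPM at 24 hpf, against 71.6 and 34.3 CPM at 7 hpf (log2 fold change -2.22, SE 0.60, edgeR adjusted p = 0.0169). All 24 hpf libraries lay below all 7 hpf libraries of the same cell type. Whichever 1 of the 8 libraries was left out, cxcr4b still passed in both cell types, but its log2 fold change in soma was -1.76 without the first 7 hpf soma library and -3.22 without the second. In PGCs the call of cxcr4a was lost without the first 7 hpf PGC library (log2 fold change -2, edgeR adjusted p = 0.0796) or without the second 24 hpf PGC library (-1.79, edgeR adjusted p = 0.0885). Without the first 24 hpf PGC library it was -3.57. In soma the call of cxcr4a was lost without the first 7 hpf soma library (-1.59, edgeR adjusted p = 0.0926). It was also lost without the first 24 hpf soma library (-2.29, edgeR adjusted p = 0.059) or the second (-2.20, edgeR adjusted p = 0.0705), where the fold change stayed close to the value with all libraries. In limma on log2(TPM + 1) without a filter neither receptor gene passed in soma, at -2.16 for cxcr4b (adjusted p = 0.0533) and -2.02 for cxcr4a (adjusted p = 0.0566).

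The ligand gene cxcl12a showed no direction in PGCs, with 22.9 and 31.1 CPM at 24 hpf inside the range of 41.3 and 12.6 CPM at 7 hpf (log2 fold change 0.00, SE 0.49, 95% interval -1.1 to 1.1). Without the first 7 hpf PGC library the estimate was 1.12, and without the second it was -0.63. In soma cxcl12a had 27.5 and 27.9 CPM at 24 hpf, against 39.7 and 39.8 CPM at 7 hpf (log2 fold change -0.52, SE 0.49, edgeR adjusted p = 0.418). The replicates nearly coincided at both stages and did not overlap, but the difference was small against the spread that the fit assigned to the gene.

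The decoy receptor gene ackr3b moved in opposite directions in the 2 cell types without passing the threshold in either. In PGCs it had 20.1 and 22.5 CPM at 24 hpf, against 14.6 and 8.76 CPM at 7 hpf (log2 fold change 0.87, SE 0.37, edgeR adjusted p = 0.1). In soma it had 37.5 and 24.8 CPM at 24 hpf, against 42.7 and 51.8 CPM at 7 hpf (log2 fold change -0.60, SE 0.37, edgeR adjusted p = 0.211). The stages did not overlap in either cell type. The difference between the 2 stage changes was 1.47 on the log2 scale (SE 0.52, 95% interval 0.29 to 2.64) and failed adjustment over all genes (edgeR adjusted p = 0.251). The summed somatic markers described above overlapped with soma in the 24 hpf PGC libraries, with gata1a and krt4 lower and MYOD1 higher. The part of somatic transcripts in the ackr3b level there was not tested.

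**Figure D4:**
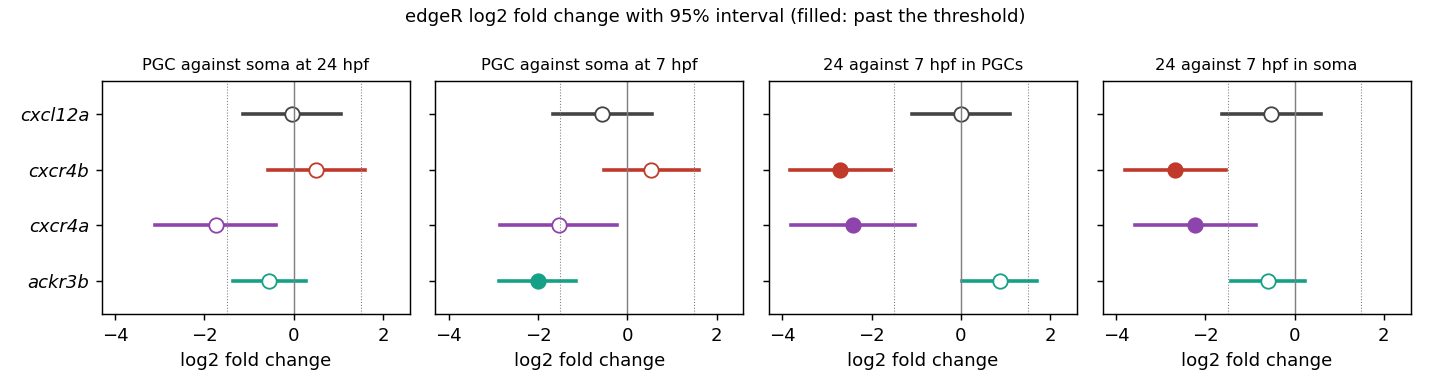
edgeR log2 fold change of each guidance gene with its 95% interval for PGC against soma at 24 and 7 hpf and for 24 against 7 hpf in PGCs and in soma. Filled circles passed the threshold (ackr3b in PGCs against soma at 7 hpf, and cxcr4b and cxcr4a between stages in both cell types), and the dotted lines mark a log2 fold change of 1.5 in each direction.

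Large differences between stages were common in these libraries. In PGCs 2 of the 4 genes passed, where 26.5% of all genes passed in either direction and 6.94% passed as lower at 24 hpf. In PGCs 3 of the 4 did not overlap between stages, against 73.8% of all genes, and the 2 receptor genes were lower at 24 hpf (29.7% of all genes) and ackr3b higher (44.1%). In soma 2 of the 4 passed, where 33.1% of all genes passed in either direction and 9.89% passed as lower at 24 hpf. All 4 were free of overlap between stages in soma, where 73.6% of all genes were, and all 4 lay lower at 24 hpf (29.5% of all genes). The median log2 fold change of the 4 was -1.21 in PGCs (all genes 0.36) and -1.41 in soma (all genes 0.46). For the difference between the stage changes of the 2 cell types, 0 of the 4 passed in edgeR and in DESeq2, where 0.00503% of all genes passed in edgeR and 4.24% in DESeq2. At an unadjusted p under 0.05 in edgeR that difference was found for 1 of the 4, ackr3b, and for 15.1% of all genes. The comparisons between cell types and between stages use the same libraries, so their values for a gene are not independent of each other.

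The split of the variance of log2 CPM among libraries set the 4 genes apart from each other. Stage took 86.9% of the sum of squares of cxcr4b and cell type 4.7%. For cxcr4a stage took 57.1% and cell type 30.7%. For ackr3b cell type took 65.8%, the interaction 23.5% and stage 0.8%. For cxcl12a 69.6% was left between replicates, more than the 57.1% that values without any structure would leave on average. Over all genes tested the median was 55.4% for stage, 6.5% for cell type and 17.1% between replicates. The ligand gene thus varied mainly between replicates, through the 7 hpf PGC pair (41.3 and 12.6 CPM), while its soma pairs nearly coincided. The receptor genes varied mainly with stage, although the stage share of cxcr4a was near the median of all genes. The decoy receptor gene varied mainly with cell type.

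The order of the 4 genes within a library, per length, differed between the stages. At 24 hpf ackr3b was the most abundant of the 4 in every library, with 5.16 and 4.52 TPM in PGCs, against 12.49 and 5.97 TPM in soma. It was followed by cxcl12a with 3.61 and 3.83 TPM in PGCs, against 5.62 and 4.13 TPM in soma. The last 2 places changed with cell type. In PGCs at 24 hpf cxcr4b (2.46 and 1.79 TPM) came before cxcr4a (1.72 and 0.37 TPM), whereas in soma cxcr4a (4.96 and 3.41 TPM) came before cxcr4b (2.37 and 1.42 TPM). At 7 hpf the receptors came first in PGCs, with cxcr4b at 16.32 and 26.98 TPM and cxcr4a at 9.96 and 6.31 TPM. There cxcl12a (8.48 and 2.88 TPM) and ackr3b (4.89 and 3.27 TPM) changed places between the libraries. In soma at 7 hpf the order was not stable. Cxcr4a (35.01 and 10.93 TPM) led in the first library and ackr3b (16.85 and 12.91 TPM) in the second, where cxcr4b (24.1 and 5.53 TPM) came last behind cxcl12a (9.54 and 6.05 TPM).

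The ratio of ackr3b to the summed cxcr4 receptor TPM was 1.23 and 2.09 in PGCs at 24 hpf, against 1.7 and 1.24 in soma. At 7 hpf it was 0.186 and 0.0982 in PGCs, against 0.285 and 0.784 in soma. Receptor transcripts therefore exceeded those of the decoy in every 7 hpf library and were exceeded by them in every 24 hpf library. The ratio of ackr3b to its ligand cxcl12a was 1.43 and 1.18 in PGCs at 24 hpf, against 2.22 and 1.45 in soma. At 7 hpf that ratio was 0.577 and 1.14 in PGCs, against 1.77 and 2.13 in soma. For the ratio to the ligand every PGC library lay below every soma library of its stage, by a narrow margin at 24 hpf. Single genes often did not overlap in CPM either, at 37.1% of all genes at 24 hpf and 48.7% at 7 hpf. The rate among ratios of other gene pairs was not examined. This ratio also carries the level of ackr3b, which by itself did not overlap at either stage. TPM of different libraries should be read with care, because the 5.8S ribosomal RNA took between 6.81% and 33.5% of all TPM, depending on the library. The ratios within a library are free of that shift.

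**Figure D5:**
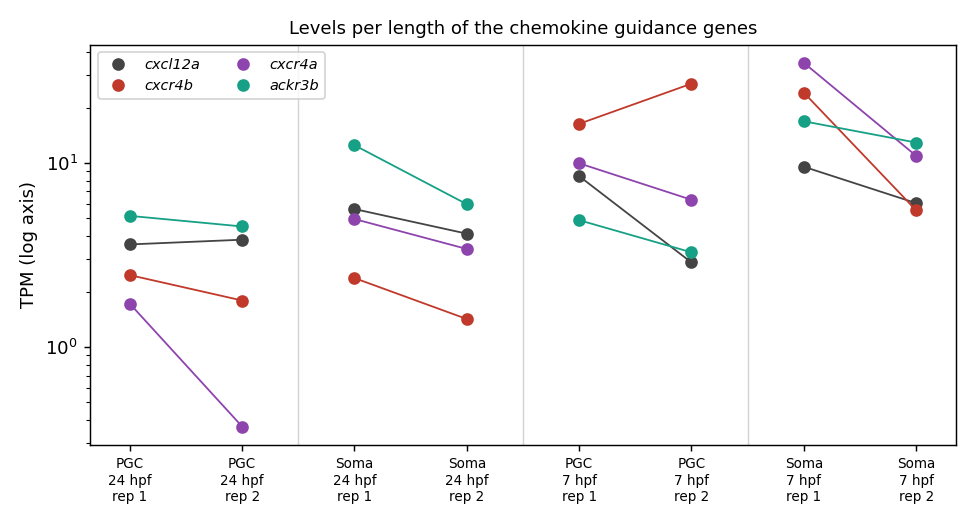
TPM (log axis) of the guidance genes in each library, in the order PGC and soma at 24 hpf, then PGC and soma at 7 hpf, with lines joining the libraries of a group. At 24 hpf ackr3b leads in all 4 libraries, and cxcr4b lies above cxcr4a in every PGC library and below it in every soma library.

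Effective length is the length a transcript offers to sequenced fragments, averaged over the isoforms of a gene, so it can change with isoform use. After the shift common to each library was removed, it was the same in all 8 libraries for cxcl12a (2803.4 bases), cxcr4b (1436.4 bases) and ackr3b (1715.4 bases). For cxcr4a it varied between 1298.4 and 1398.4 bases. The values were 1331.5 and 1398.4 bases in PGCs at 24 hpf, against 1323.4 and 1362.2 bases in soma. At 7 hpf they were 1298.4 and 1398.4 bases in PGCs, against 1390.3 and 1344 bases in soma. Cxcr4a was thus the only one of the 4 genes whose estimated isoform mixture varied by this measure. Its groups overlapped, so the mixture separated neither the cell types nor the stages. A gene with a single annotated transcript cannot vary in this measure, and the number of annotated transcripts per gene was not examined. All expected counts of the 4 genes were whole numbers.

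Other genes of the pathway were described from a list of 13 symbols, of which grk2 could not be matched, leaving 12 genes. The list holds a second Cxcl12 ligand, a second Ackr3, the atypical chemokine CXCL14, arrestins, inhibitory G protein subunits, the motility regulator rgs14a and the adhesion molecule cdh1. Between the cell types 0 of 12 passed at 24 hpf (median log2 fold change -0.10), where 0.0302% of all genes passed. At 7 hpf 1 of 12 passed as higher in PGCs, where 3.61% of all genes did, and the median was 0.06. That gene was rgs14a, a regulator of G protein signalling known in zebrafish for a role at the start of PGC motility. It had 224 and 91.9 CPM in PGCs at 7 hpf, against 1.2 and 2.8 CPM in soma (log2 fold change 6.32, SE 0.84, edgeR adjusted p = 0.0143). At 24 hpf rgs14a was near the floor in both cell types, at 1 and 0.727 CPM in PGCs, against 0.0662 and 0.961 CPM in soma. This gene also belongs to the germ cell genes that the study listed for PGCs at an earlier stage, so its enrichment is not independent of that list. The second Cxcl12 ligand, cxcl12b, overlapped between cell types at both stages, with 34.6 and 7.39 CPM in PGCs at 24 hpf, against 72.6 and 19.8 CPM in soma.

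Between stages 4 of the 12 rose and 2 fell in PGCs (median log2 fold change 0.44), where 19.5% of all genes rose and 6.94% fell. In soma 4 rose and 1 fell (median 0.74), where 23.2% of all genes rose and 9.89% fell. Both medians are the same with genes that had no reads at 7 hpf set to their lower bound. Those genes stay above the median either way, so it could not move. In PGCs those that fell were rgs14a (log2 fold change -7.49, SE 0.89, edgeR adjusted p = 0.000561) and the G protein subunit gene GNAI2 (ENSDARG00000017294, log2 fold change -2.51, SE 0.47, edgeR adjusted p = 0.00438). GNAI2 had 7.81 and 10.1 CPM in PGCs at 24 hpf, against 51.6 and 50.7 CPM at 7 hpf. The second gene listed as GNAI2 (ENSDARG00000018174) did not pass, with 43.7 and 45.9 CPM at 24 hpf, against 38.5 and 34.2 CPM at 7 hpf in PGCs. Another subunit gene, GNAI3, rose in PGCs to 12.5 and 8.12 CPM at 24 hpf, against 1.38 and 0.618 CPM at 7 hpf (log2 fold change 3.33, SE 0.75, edgeR adjusted p = 0.00982). It rose in soma as well, to 10.7 and 12.6 CPM, against 0.225 and 0.839 CPM (edgeR adjusted p = 0.00287). Genes of 1 subunit family therefore moved in opposite directions between the stages.

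The arrestin genes, whose products bind activated receptors, also differed among themselves. ARRB2 (ENSDARG00000011545) rose in PGCs to 41.6 and 34.1 CPM at 24 hpf, against 12.8 and 10.4 CPM at 7 hpf (log2 fold change 1.70, SE 0.33, edgeR adjusted p = 0.00498). The other gene listed as ARRB2 (ENSDARG00000039215) fell in soma to 12.2 and 6.86 CPM at 24 hpf, against 34.5 and 37.7 CPM at 7 hpf (log2 fold change -1.92, SE 0.40, edgeR adjusted p = 0.00566). Each moved the same way in the other cell type without passing the threshold. The log2 fold change was 0.85 in soma for the first and -1.24 in PGCs for the second. For neither gene did the difference between the 2 stage changes pass. ARRB1 passed as higher at 24 hpf in soma, with 1.52 and 1.03 CPM there and no reads at 7 hpf. The group mean was at least 5.06-fold higher when set against 3 counts per library. The second Ackr3 gene (ENSDARG00000062478) and CXCL14 had no reads in any 7 hpf library. At 24 hpf that Ackr3 gene had 1.9 and 2.42 CPM in PGCs, against 0.463 and 2.2 CPM in soma. Its group mean at 24 hpf was 8.21-fold the mean 7 hpf floor in PGCs and 5.28-fold in soma. Single libraries can lie closer to the floor, as the first soma library did. CXCL14 had 8.66 and 22.4 CPM in PGCs at 24 hpf, against 12.4 and 13.5 CPM in soma. Its group mean was 59-fold the mean 7 hpf floor in PGCs and 51.4-fold in soma.

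For each guidance gene, the gene with the most similar pattern was taken by Pearson correlation of log2 CPM over the 8 libraries, among all genes tested. This was LTN1 for cxcr4b (r = 0.995), LDB1 for cxcr4a (r = 0.99), DOCK1 for ackr3b (r = 0.987) and gabarapb for cxcl12a (r = 0.958). The points are 8 libraries in 4 groups, and the best of 19885 candidates was taken in each case, so these values only describe likeness. DOCK1, for example, had 57.2 and 42.9 CPM in PGCs at 7 hpf, against 121 and 115 CPM in soma. Among the 4 guidance genes themselves r was 0.62 between cxcr4b and cxcr4a, 0.68 between cxcl12a and ackr3b, and -0.32 between cxcr4b and ackr3b.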

How the data were processed

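RNA was measured in 8 libraries of sorted zebrafish PGCs and soma, made with a SMARTer pico total RNA kit and sequenced paired-end. Per the labels, the authors used Trim Galore for trimming, STAR for alignment, danRer10 as the genome build and RSEM for quantification; the annotation release and the use of strand in counting are not given in the sources used here. The authors deposited RSEM expected counts (estimated reads per gene), TPM and effective lengths in bases per gene and library. The libraries had an additional lane for splicing work that was analysed together with an earlier run. Groups and replicate numbers came from the library titles.

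Expected counts were rounded and 92 spike-in rows, all at 0, were dropped. Counts were tested in R 4.3.3 with edgeR 4.0.16 (filterByExpr, TMM, quasi-likelihood test, 1 fit with 4 group means), with Benjamini-Hochberg adjustment over 19885 genes. Standard errors are the log2 fold change over the root of the F statistic. Log2 CPM used a prior count of 2. Length shifts were medians over genes with at least 20 counts in every library, relative to the first 7 hpf PGC library. Alternatives used DESeq2 1.42.0 and limma 3.58.1. The test was tested on simulated data for 2 comparisons.

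Symbols came from a reference table that matched 26790 of 34289 gene IDs; sequences and coordinates were not used here. Besides the 4 guidance genes, the genes named are the nearest gene of each and those of the pathway and marker lists, from which mylpfa, grk2 and an embryonic globin were not matched to an ID. The study's own list of 7 gamete generation genes passed as higher in PGCs for 4 of 7 at 24 hpf and 7 of 7 at 7 hpf. Over all genes 0.0302% passed as higher at 24 hpf and 3.61% at 7 hpf. The study drew that list from genes higher in its own PGCs at 4 hpf. The counts are therefore not independent of how the list was made. Of 6 gastrula soma markers, 0 passed at 24 hpf and 1 (foxi1, lower in PGCs) at 7 hpf. The members and lists were chosen with earlier results of these data known.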

Additional observations from a re-analysis of the deposited data

Results flagged for a closer look

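The decoy receptor gene ackr3b was singled out because its libraries moved in opposite directions with stage in the 2 cell types. Both PGC libraries were higher at 24 hpf (20.1 and 22.5 CPM, against 14.6 and 8.76 CPM at 7 hpf), and both soma libraries were lower (37.5 and 24.8 CPM, against 42.7 and 51.8 CPM). The difference between the changes was 1.47 on the log2 scale. It was tested as an interaction in edgeR and did not pass (adjusted p = 0.251). Over the fits that left out 1 library it ranged between 1.17 and 1.94. Summed somatic markers overlapped with soma in the 24 hpf PGC libraries, although gata1a (1.9 and 1.58 CPM, against 13 and 9.2 CPM) and krt4 were lower. MYOD1 was higher there. The part of somatic transcripts in this value was not tested.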

How the results depend on the processing

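With 2 libraries per group, every fit that left out a library rested on an arm with a lone library, assumed to vary like the other groups. Depth limits cxcr4a most, with 99 and 25 reads in the PGC libraries of 24 hpf. On log2(TPM + 1), kept to genes with a mean TPM of at least 1, the median for 24 against 7 hpf in PGCs was -0.53. It was 0 on that scale without a filter and 0.36 in the edgeR fit. Both the scale and the set of genes differ, so stage changes in these fits are relative to different centres. In PGCs against soma at 7 hpf, the number of guidance genes called (1, ackr3b) became 2 without a count filter, where cxcr4a also passed (log2 fold change -1.58, adjusted p = 0.0152). It became 0 in the fit of the 4 libraries alone, and 0 in limma on log2(TPM + 1), on log2(TPM + 0.1) and on log2(TPM + 1) without a filter. With TMM-scaled TPM, an alternative chosen after seeing the data, it was 1. For 24 against 7 hpf in soma the count of 2 became 0 in limma on log2(TPM + 1) without a filter (adjusted p = 0.0533 for cxcr4b and 0.0566 for cxcr4a). The cause was not tested in these cases. Leaving out 1 library at a time gave 0 to 1 genes called for PGCs against soma at 7 hpf, 1 to 2 for 24 against 7 hpf in PGCs and 1 to 2 in soma, and 0 for both other comparisons.

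Values near 0 changed sign. The stage change of cxcl12a in PGCs (0.00) was 0.04 with RLE size factors, 0.04 in DESeq2 and 0.26 in limma on TMM-scaled TPM, and between -0.63 and 1.12 without 1 library. The cxcr4b interaction (-0.03) was 0.02 without a count filter and between -0.94 and 0.52 without 1 library. Without 1 library, cxcr4b in PGCs against soma at 7 hpf lay between -0.01 and 1.45, cxcl12a between -1.71 and 0.04 at 7 hpf and between -0.27 and 0.17 at 24 hpf. The interaction lay between -1.36 and 0.42 for cxcr4a and between -0.07 and 1.68 for cxcl12a. The stage share of the variance of cxcl12a was 23.2% on log2(TPM + 1). With the library shift left in, effective length varied by 39.2 bases over the libraries for cxcl12a, cxcr4b and ackr3b alike.

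Replicate numbers come from the titles. Whether libraries with the same number came from the same embryos is not stated in the sources used here, and the main fit did not pair them. Over genes, the difference between replicates in PGCs had a correlation of 0.199 with that in soma at 24 hpf and 0.077 at 7 hpf, and across the 2 stages it was 0.043 in PGCs and -0.009 in soma. A replicate block left all counts of guidance genes called as they were, as 1 term for all libraries or 1 per stage. It moved the stage change of cxcl12a in PGCs to 0.1 as 1 term and 0.16 within stage.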
